A study of Mus musculus with 16 samples.

Results

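The genes described here are 50 genes of mitosis and of the G2 to M transition, chosen by name out of the 24421 gene names in the abundance tables of the mouse dentate gyrus. They comprise the cyclin and kinase engine of mitosis, mitotic kinases, the spindle checkpoint, kinetochore proteins, kinesins, spindle proteins, condensin and the machinery of cytokinesis. They were listed by name and role, with earlier results of these data known. RNA was taken from the dentate gyrus of male C57BL/6 mice aged 1 year, in 16 libraries, each from a pair of pooled mice. The p16 WT CTL group was p16Ink4a +/+ and sedentary, the p16 KO CTL group was p16Ink4a -/- and sedentary, the p16 WT RUN group was p16Ink4a +/+ and ran for 12 days, and the p16 KO RUN group was p16Ink4a -/- and ran for 12 days, with 4 libraries each. In this order they are also called the sedentary wild types, sedentary knockouts, running wild types and running knockouts. The knockout is constitutive and was made in FVB mice before it was moved to C57BL/6, so that it acts in every cell type of the tissue. Because mice were pooled, the errors given below are between pools and not between animals.

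A cell that divides builds up cyclins A and B, which switch on the kinase CDK1 and start mitosis, and the spindle, kinetochores and condensin then sort the condensed chromosomes before cytokinesis parts the daughter cells. Most mitotic genes are transcribed late in the cycle and are silent in resting cells, and in the adult dentate gyrus the cells that divide are the few neural stem cells and progenitors of the subgranular zone, glial progenitors and some cells of vessels, among very many postmitotic granule neurons. The product of Cdkn2a, p16Ink4a, inhibits the kinases CDK4 and CDK6, which act upstream of these genes at the entry into the cycle. In bulk tissue, fewer cells of a type and less RNA per cell cannot be told apart.

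Levels are in TPM, the share of a library's transcripts scaled to a fixed total, which corrects for gene length and allows levels to be compared between genes. Fold changes are differences of log2(scaled TPM + 0.1) fitted with limma, where a gene is called at an unadjusted p under 0.05, the threshold of the study, and adjusted p-values run over the 17317 genes whose mean reached 0.1 TPM. Set A compared p16 KO RUN with p16 KO CTL, Set B p16 KO CTL with p16 WT CTL, Set C p16 WT RUN with p16 WT CTL, Set D the running knockouts with the sedentary wild types and Set E the running knockouts with the running wild types, while the interaction asked whether the effect of running differed between the genotypes. Sets A, D and E share the p16 KO RUN libraries and the other sets share control groups, so their values are given side by side. No mitotic gene reached an adjusted p under 0.05 in any comparison, and the smallest was 0.0861, for Mki67 in Set A.

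The knocked-out gene was near 0 everywhere and does not tell the genotypes apart. Cdkn2a (mm10, chr4:89274473-89294619) was listed at 0, 0.586, 0 and 0.0843 TPM in the sedentary wild types, at 0, 0, 0.344 and 0.175 in the sedentary knockouts, at 0.475, 0.189, 0.147 and 0 in the running wild types and at 0.413, 0, 0 and 0 in the running knockouts, and its value also takes in exons shared with p19Arf. The dentate gyrus was well represented, since Prox1, the granule neuron factor, ran from 58.1 to 187 TPM. In 3 libraries, p16 WT CTL replicate 2 and p16 KO CTL replicates 6 and 7, the summed level of 9 nuclear long noncoding RNAs was 985, 550 and 486 TPM, against 1841 to 2545 TPM in the other 13. These libraries are called low in nuclear RNA, and the calls of the mitotic genes and, in Set A, the counts of the other lists are also given without them. The libraries also differed in read coverage, whose median ratio to the average library was 0.900 to 1.95 in the sedentary wild types, 0.914 to 1.68 in the sedentary knockouts, 0.621 to 0.877 in the running wild types and 0.796 to 0.893 in the running knockouts.

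Mitotic transcripts were scarce. Of the 50 genes, 24 had a mean of at least 1 TPM over the 16 libraries and only 3 a mean of at least 10 TPM, namely Mzt1 at 87.2 TPM, Ncapd2 at 14.8 and Smc2 at 10.3. Another 24 genes lay between 0.1 and 1 TPM, and Melk and Bub1, at 0.0538 and 0.0542 TPM, were below the filter and were not tested, which leaves 48. In 15 genes at least 1 library was listed at 0, and in 14 genes the mean coverage per base was under 1. Read counts were not used here, so the counting error of these low values is not known. Among the tested genes, Cdk1, Ccnb1, Ndc80, Hmmr and Ncapg passed the filter only through p16 KO RUN, since their mean over the other 12 libraries was 0.0522 to 0.0952 TPM. A gene that passes in this way tends to be highest in that group, so counts are also given without these 5.

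The promoters of these genes are shown first because a shared control sequence is what many of them are known for. The cell cycle homology region (CHR), with the letters TTTGAA, and the CCAAT box are the textbook elements of promoters that are active in G2 and M, read by the MuvB complexes and by NF-Y. RefSeq promoter windows of build GRCm38.p6, from 250 bases before to 50 bases after the start site, were matched by symbol for 42 of the 50 genes. TTTGAA on either strand was found in 31 of these 42 (73.8%), against 20.2% of the 27025 genes with such a window. CCAAT on either strand was found in 31 of 42 as well (73.8%, against 41.1%), and both letter strings together in 27 of 42 (64.3%, against 7.97%). The match of TTTGAA began within 50 bases of the start site in 27 genes. Positions were not counted for other genes, so no share of all genes stands beside this count. The other mitotic genes described further on held TTTGAA in 32 of 61 windows (52.5%), and replication genes in 7 of 39 (17.9%). GGCGGGAA, a form of the E2F site, was in none of the 42 mitotic windows, in 8 of 39 replication windows (20.5%) and in 2.52% of all genes, which says only that these letters are not there. A match describes the sequence, and no binding was measured.

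Of the 10 genes called higher in both Set A and Set E, 8 had a window, of which 7 held both letter strings and Knstrn neither. Printed below, to show where the strings lie, are 5 of those 7, chosen for holding them, namely Mki67 at chr7:135716330-135716629 (- strand), Top2a at chr11:99024140-99024439 (- strand), Cdk1 at chr10:69352863-69353162 (- strand), Ube2c at chr2:164769679-164769978 (+ strand) and Prc1 at chr7:80294201-80294500 (+ strand), and of Mzt1 at chr14:99046087-99046386 (- strand), the gene called lower in both. Each runs 5′ to 3′ along the gene, with TTTGAA and CCAAT, or their reverse complements TTCAAA and ATTGG, in capitals.
Mki67: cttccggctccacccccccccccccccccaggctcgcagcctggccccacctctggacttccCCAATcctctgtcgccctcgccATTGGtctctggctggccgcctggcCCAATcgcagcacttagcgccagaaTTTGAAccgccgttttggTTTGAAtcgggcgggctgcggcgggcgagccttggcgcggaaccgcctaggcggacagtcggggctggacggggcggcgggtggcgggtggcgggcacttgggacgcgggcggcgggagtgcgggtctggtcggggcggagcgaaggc
Top2a: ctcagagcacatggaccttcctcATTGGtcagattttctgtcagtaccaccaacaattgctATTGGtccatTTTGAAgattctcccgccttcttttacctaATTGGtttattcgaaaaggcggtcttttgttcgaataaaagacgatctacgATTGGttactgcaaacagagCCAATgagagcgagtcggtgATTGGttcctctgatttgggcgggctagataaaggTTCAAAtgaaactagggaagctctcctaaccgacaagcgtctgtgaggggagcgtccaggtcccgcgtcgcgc
Cdk1: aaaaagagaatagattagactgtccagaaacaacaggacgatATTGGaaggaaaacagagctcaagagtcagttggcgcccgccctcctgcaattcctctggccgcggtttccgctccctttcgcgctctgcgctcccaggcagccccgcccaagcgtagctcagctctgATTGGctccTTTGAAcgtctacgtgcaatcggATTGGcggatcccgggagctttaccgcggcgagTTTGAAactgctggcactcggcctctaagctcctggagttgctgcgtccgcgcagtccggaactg
Ube2c: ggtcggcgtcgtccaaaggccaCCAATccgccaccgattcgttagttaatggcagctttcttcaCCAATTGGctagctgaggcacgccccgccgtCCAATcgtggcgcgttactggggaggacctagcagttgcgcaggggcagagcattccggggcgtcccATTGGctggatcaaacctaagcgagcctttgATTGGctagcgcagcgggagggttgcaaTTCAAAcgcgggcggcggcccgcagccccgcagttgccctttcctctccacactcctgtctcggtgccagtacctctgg
Prc1: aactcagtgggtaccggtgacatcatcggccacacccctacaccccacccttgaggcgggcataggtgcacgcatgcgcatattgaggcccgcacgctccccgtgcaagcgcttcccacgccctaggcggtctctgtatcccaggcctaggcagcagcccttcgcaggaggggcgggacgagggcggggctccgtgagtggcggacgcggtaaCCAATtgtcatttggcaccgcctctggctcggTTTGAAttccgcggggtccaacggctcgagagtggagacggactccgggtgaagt
Mzt1: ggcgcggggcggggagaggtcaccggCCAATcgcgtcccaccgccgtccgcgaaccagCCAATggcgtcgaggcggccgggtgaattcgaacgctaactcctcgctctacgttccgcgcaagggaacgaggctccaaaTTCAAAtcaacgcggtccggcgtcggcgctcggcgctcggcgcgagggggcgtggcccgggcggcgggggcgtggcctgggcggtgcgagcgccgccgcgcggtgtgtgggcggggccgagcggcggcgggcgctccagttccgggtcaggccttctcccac
In Cdk1 the 2 matches of TTTGAA began at positions -71 and -15 from the start site, and 3 CCAAT boxes lay on the reverse strand at -208, -80 and -48. Top2a held 6 CCAAT boxes and matches of TTTGAA beginning at positions -179 and -23 from the start. Ube2c also held 6 CCAAT boxes, a pair of them overlapping on opposite strands, with its single TTCAAA at -29. Mki67 held 3 CCAAT boxes and matches of TTTGAA farther upstream, at -116 and -98, and Mzt1 held TTCAAA at -112. Prc1 had 1 CCAAT box and 1 TTTGAA, at -37 and -5 in the printed window. Mzt1 thus carried both letter strings although it moved against the other genes. Of the 14 genes with a window that were called higher in Set A, 13 held TTTGAA, and of the 26 tested genes with a window that were not called higher, 18 did. In Set E the counts were 9 of 11 (81.8%) and 22 of 29 (75.9%), which are near each other. Sets A and E share the p16 KO RUN libraries, and no test was made of these shares.

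**Figure D1:**
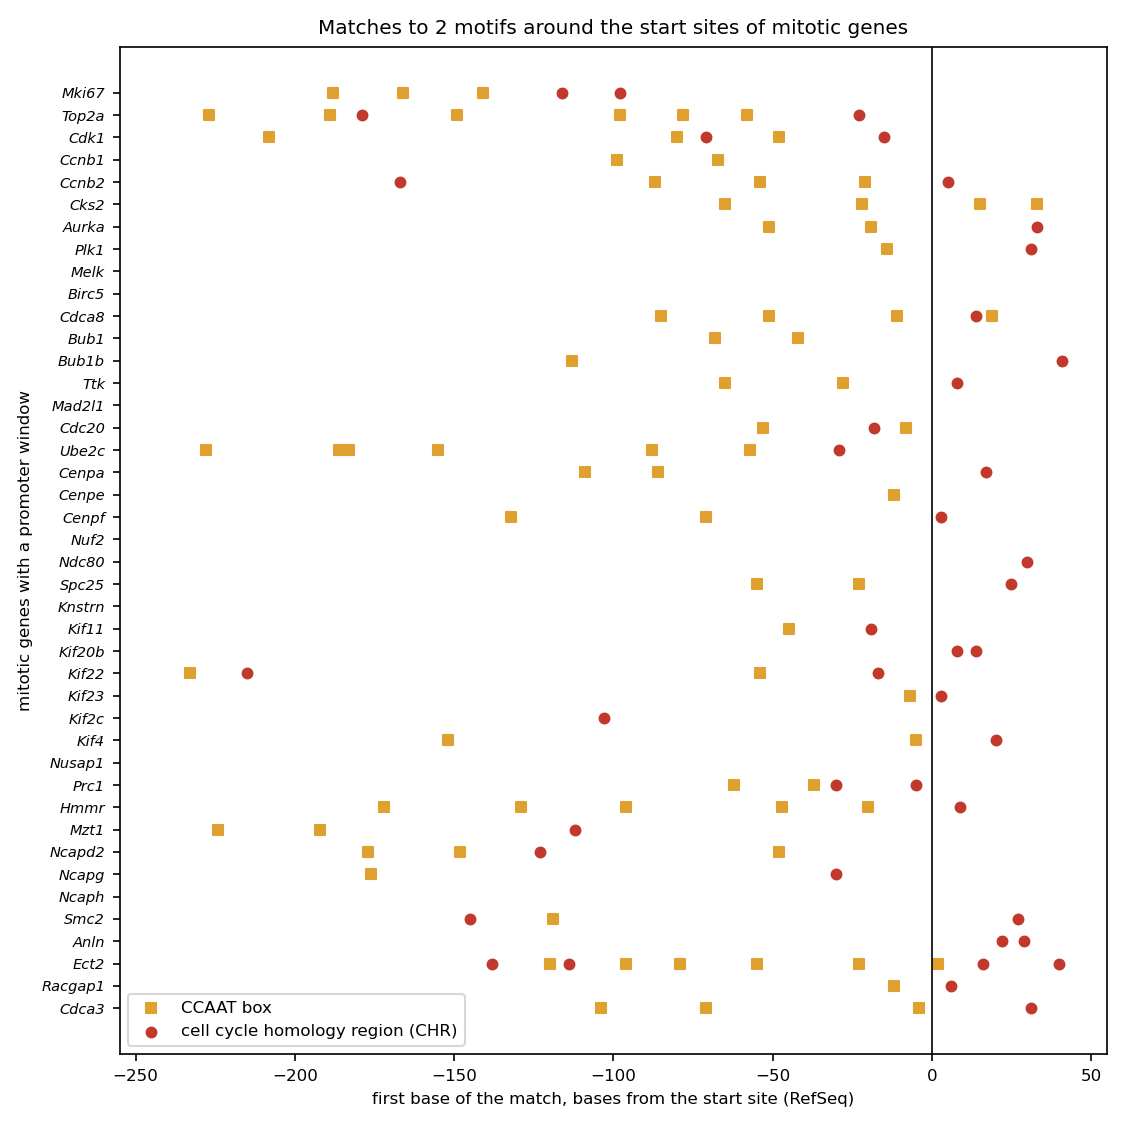
Positions of the CHR (red circles) and of the CCAAT box (yellow squares) in the RefSeq promoter windows of 42 mitotic genes, on either strand. The horizontal axis gives the first base of each match in bases from the start site, and in 27 genes a CHR match lies within 50 bases of it (Prc1 and Ect2 have 2 windows each, both drawn).

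The level of most mitotic genes was highest in the running knockouts. Among the 48 tested genes, 34 had their highest group mean there (70.8%, against 27.0% of all tested genes, or 29 of 43 without the 5 genes that the filter fixed there), 8 in the sedentary wild types, 3 in the sedentary knockouts and 3 in the running wild types. Summed without Mzt1, the most abundant of them, the mitotic genes reached 103 to 111 TPM in the running knockouts, 93.7 to 96.0 in the running wild types, 79.5 to 108 in the sedentary wild types and 74.8 to 94.1 in the sedentary knockouts. Every p16 KO RUN library was thus above every p16 WT RUN and p16 KO CTL library in this sum, while p16 WT CTL overlapped with it. This separation depends on leaving out Mzt1, which moved against the other genes. With Mzt1 the sums were 188 to 192 TPM in the running knockouts and 178 to 194 in the running wild types. They were 159 to 196 in the sedentary wild types and 163 to 189 in the sedentary knockouts, so that every group overlapped with the running knockouts. The lowest sums of the p16 WT CTL and p16 KO CTL groups were in libraries low in nuclear RNA.

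**Figure D2:**
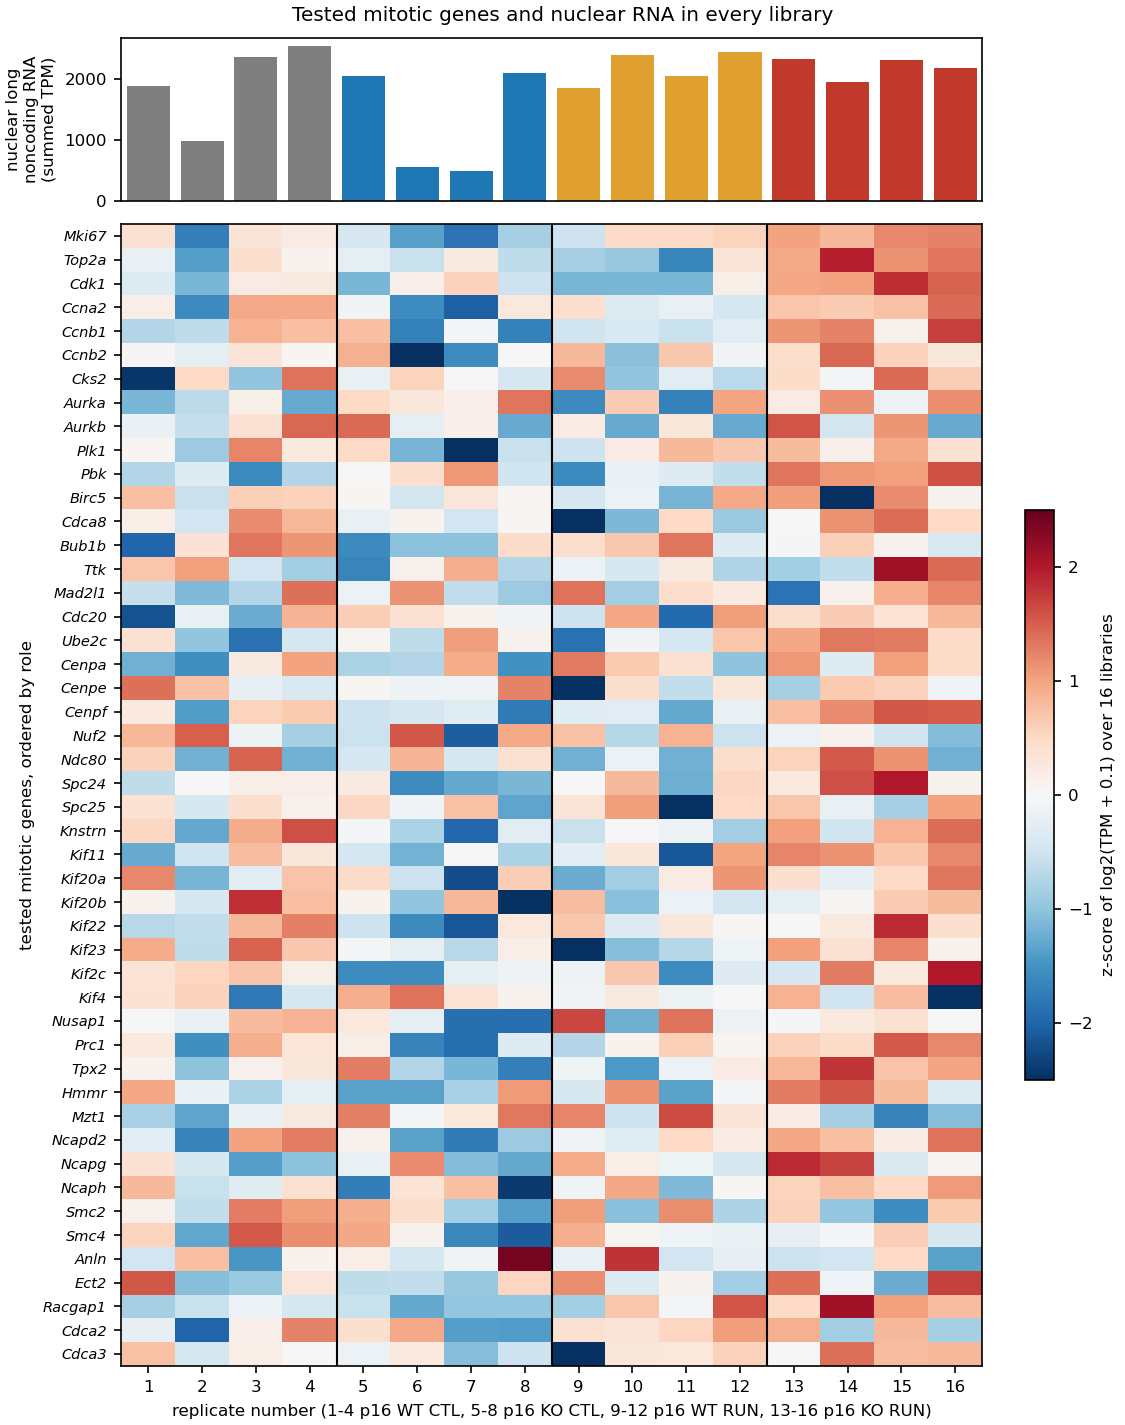
Levels of the 48 tested mitotic genes in every library, as z-scores of log2(TPM + 0.1) over the 16 libraries, below the summed TPM of 9 nuclear long noncoding RNAs. Columns 13 to 16 (p16 KO RUN) are mostly red, and columns 2, 6 and 7, with 985, 550 and 486 TPM of nuclear RNA, are blue for Mki67, Ccna2, Prc1 and Ncapd2.

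With the processing used here, a larger share of the listed mitotic genes than of all tested genes was called higher in Set A. The shares called were near each other in Set A with quantile normalization (18.8%, against 17.8%). The same was seen in Set D with a filter at a mean of 1 TPM (8.33%, against 8.91%). In Set A 17 of the 48 tested genes were higher (35.4%) and 1 was lower, with a median log2 fold change of 0.49, whereas over all tested genes 10.7% were higher and 7.74% lower, with a median of 0.018. In Set E 14 of 48 were higher (29.2%) and 1 was lower, against 2.11% and 1.76% of all genes, and the median was 0.38 against 0.0032. In the interaction 12 were higher (25%) and 1 lower, against 2.95% and 2.54%, with a median of 0.57 against 0.017. In Set D 6 were higher (12.5%) and none lower, against 4.97% and 3.66%. By contrast, in Set B 3 were called higher and 1 lower, against 3.15% and 3.54% of all genes, and in Set C none was called higher and 2 were called lower, against 2.69% and 2.13%. The 4 calls in Set B became 9 (18.8% of 48, where 17.5% of all genes were called) when replicate 2 of the sedentary wild types was left out, 2 when their replicate 3 or the sedentary knockouts' replicate 7 was (4.17%, against 4.11% and 3.22% of all genes), and 1 when the knockouts' replicate 6 was (2.08%, against 3.96%). The 2 calls in Set C (4.17%, against 4.81% of all genes) became 4 when replicate 2 of the sedentary wild types was left out (8.33%, against 5.88%), 0 when their replicate 1, 3 or 4 was (against 3.42%, 4.87% and 5.31%), and 1 when replicate 9, 10 or 12 of the running wild types was (2.08%, against 5.00%, 3.07% and 4.17%). In these fits the share of mitotic genes called moved with that of all genes in Set B and lay near it or below it in Set C, save without replicate 2. Without p16 WT CTL replicate 1, however, the share in Set B was 8.33%, where 3.51% of all genes were called. The medians of Sets B, C and D were -0.15, -0.060 and 0.25, against -0.011, 0.0039 and 0.0038 over all genes. Without the 5 genes that passed the filter only through p16 KO RUN, 43 genes remained, of which 16 were higher in Set A, 12 in Set E, 10 in the interaction and 5 in Set D, with medians of 0.40, 0.29, 0.53 and 0.22.

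The libraries low in nuclear RNA bear on the sets that contain sedentary mice. Without them, Set A called 13 mitotic genes higher (27.1%) and 1 lower, where 4.9% of all tested genes were called higher and 3.59% lower. Set B then called 1 higher and 1 lower (2.08% each, against 3.19% and 3.48%), Set C none higher and 4 lower (8.33%, against 2.91%), Set D 6 higher (12.5%, against 5.92%) and none lower, and the interaction 11 higher (22.9%, against 3.75%) and 2 lower (4.17%, against 3.49%). With the 5 genes that passed through p16 KO RUN left out as well, 12 were higher in Set A, 5 in Set D and 10 in the interaction, with medians of 0.38, 0.085 and 0.45. The part of these libraries' RNA quality in the results was not tested. Set E contains none of these libraries. It has fewer calls when 1 library is left out, 8 in all (16.7%) without p16 WT RUN replicate 9, p16 KO RUN replicate 15 or p16 KO RUN replicate 16, where 2.81%, 3.18% and 3.45% of all genes were called, and at most 15. With each library left out in turn, the calls of Mki67, Top2a, Cdk1, Ccna2, Prc1, Mzt1, Ncapd2 and Racgap1 in Set A, of Top2a, Cdk1, Ccna2, Pbk and Ube2c in Set E and of all 6 genes in Set D were kept. In Set A 12 to 16 genes (25.0% to 33.3%) were called with 1 library left out, where 11.7% to 27.4% of all genes were, the last without p16 KO CTL replicate 5. With quantile normalization 9 were called there (18.8%), which is near the share of all genes, 17.8%, while Set E kept 11 (22.9%, against 3.93%) and the interaction 9 (18.8%, against 5.49%). Under it Cdk1, Pbk, Ube2c, Cenpf, Spc24, Knstrn, Kif11, Kif22, Kif2c and Cdca3 lost their calls in Set A, Kif2c in Set B, Ccnb1, Cenpf, Knstrn and Tpx2 in Set E, and Cdk1, Ccnb1, Cenpf and Kif2c in the interaction. With all 16 libraries in one fit, Ube2c, Kif11 and Cdca3 lost theirs in Set A, Kif2c in Set B and Mki67, Ccna2, Knstrn, Prc1 and Ncapd2 in Set E. A pseudocount of 1 TPM ended those of Kif2c in Sets A and B and of Ccnb1 in Set E and the interaction, and the absence of a filter those of Plk1, Ube2c and Kif22 in Set A. Mki67, Top2a, Prc1, Cenpf, Ncapd2, Mzt1 and Knstrn are named in the results of the study, which selected them on these same samples, so they are not independent evidence of a direction. Without these 7, of 41 genes 11 were called higher and none lower in Set A, 8 and none in Set E, 6 and none in the interaction and 4 and none in Set D. Without them and the 5 genes that passed through p16 KO RUN, 36 genes were left, with 10 called higher in Set A, 6 in Set E, 4 in the interaction and 3 in Set D. Over all tested genes the shares called higher were 10.7%, 2.11%, 2.95% and 4.97%, in the same order.

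**Figure D3:**
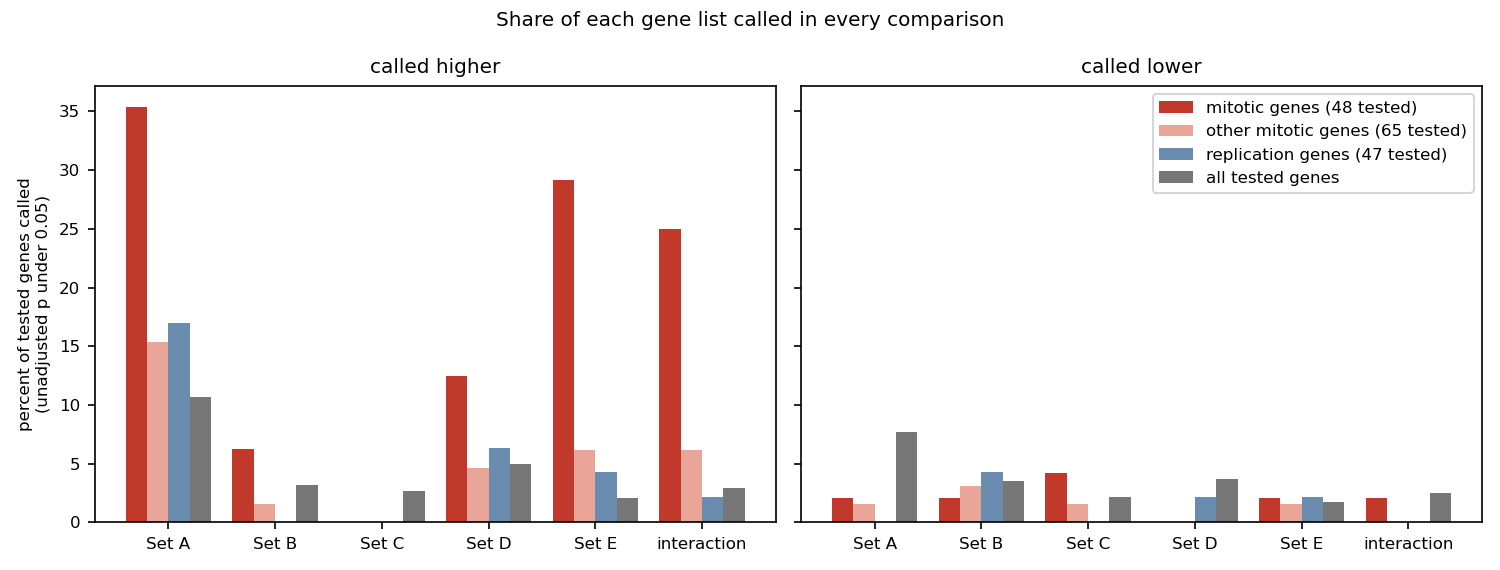
Percentage of tested genes called higher (left) and lower (right) at an unadjusted p under 0.05 in each comparison, for the 48 mitotic genes, 65 other mitotic genes, 47 replication genes and all tested genes. The mitotic genes stand at 35.4% in Set A, 29.2% in Set E and 25% in the interaction on the left, above the grey bars of 10.7%, 2.11% and 2.95%.

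Of the markers and the cyclin engine, 4 of 7 rose in Set A and 5 of 7 in Set E, against 10.7% and 2.11% of all genes, or 3 of 5 in both without Cdk1 and Ccnb1, whose passing of the filter favoured these counts. In lists this short, 1 gene called higher in Set A is near that share. Mki67 (chr7:135689788-135716379) encodes Ki-67, the protein that coats mitotic chromosomes and marks every cycling cell. It was at 1.47, 0.527, 1.43 and 1.36 TPM in the sedentary wild types, 1.01, 0.630, 0.491 and 0.818 in the sedentary knockouts, 0.957, 1.53, 1.55 and 1.59 in the running wild types and 1.97, 1.80, 2.15 and 2.19 in the running knockouts. All libraries of p16 KO RUN were above all 12 others, and the lowest values, 0.527, 0.630 and 0.491 TPM, were in the libraries low in nuclear RNA. Its log2 fold change was 1.32 (SE 0.22, adjusted p = 0.0861) in Set A, 0.53 (SE 0.20, adjusted p = 1) in Set E and 0.80 (SE 0.29, adjusted p = 0.476) in Set D. In Set C it was 0.27 (95% confidence interval -0.46 to 1.0), and the interaction was 1.05 (SE 0.39). Without the libraries low in nuclear RNA Mki67 remained called in Set A at 1.06, in the interaction at 1.08 and in Set D at 0.50, where p16 WT CTL replicate 2 is the library that drops out.

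Top2a (chr11:98992947-99024189), the topoisomerase that untangles sister chromatids, was at 0.763, 1.36, 0.844 and 0.958 TPM in the running knockouts, against 0.242, 0.221, 0.125 and 0.523 in the running wild types, 0.367, 0.293, 0.492 and 0.276 in the sedentary knockouts and 0.375, 0.155, 0.546 and 0.451 in the sedentary wild types. The libraries of p16 KO RUN did not overlap with any other group. The log2 fold change was 1.18 (SE 0.28, adjusted p = 0.151) in Set A, 1.59 (SE 0.36, adjusted p = 1) in Set E and 1.22 (SE 0.33) in Set D, with an interaction of 1.56 (SE 0.50). With the libraries low in nuclear RNA left out the values were 1.32 in Set A, 0.95 in Set D and 1.96 in the interaction, all called. An exact two-sided permutation test gave 0.0286 in Sets A, D and E for both Mki67 and Top2a, which is the smallest p that 4 against 4 libraries allow.

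Cdk1 (chr10:69336635-69352912), the kinase that drives entry into mitosis, was close to the limit of detection outside p16 KO RUN. It was listed at 0.20, 0.204, 0.372 and 0.289 TPM in the running knockouts and at 0, 0, 0 and 0.0955 in the running wild types, 0, 0.0934, 0.143 and 0.0377 in the sedentary knockouts and 0.0512, 0, 0.101 and 0.104 in the sedentary wild types, so 5 libraries were at 0 and its coverage was at most 0.962. The groups did not overlap with p16 KO RUN, and the log2 fold change was 1.13 (SE 0.40, adjusted p = 0.218) in Set A, 1.19 (SE 0.36) in Set D, 1.60 (SE 0.39) in Set E and 1.54 (SE 0.56) in the interaction. Cdk1 passed the filter only through p16 KO RUN, which favours such a separation, so these values are a description only. Leaving out the libraries low in nuclear RNA gave 1.60, 0.97 and 2.23 in Sets A and D and the interaction, all called. Its size depends on the pseudocount, from 0.24 with 1 TPM to 2.29 with 0.01 TPM in Set A, and with quantile normalization the calls in Set A and the interaction were lost.

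The cyclins that activate CDK1 differed in how clearly they moved. Ccna2, cyclin A2, was at 2.24, 2.19, 2.28 and 3.05 TPM in the running knockouts, 1.99, 1.42, 1.53 and 1.36 in the running wild types, 1.61, 0.818, 0.656 and 1.86 in the sedentary knockouts and 1.78, 0.805, 2.5 and 2.49 in the sedentary wild types. The running knockouts lay above the sedentary knockouts and the running wild types, and overlapped with the sedentary wild types. It rose in Set A by 0.97 (SE 0.31, adjusted p = 0.203) and in Set E by 0.61 (SE 0.18, adjusted p = 1), with an interaction of 1.13 (SE 0.46), and the call in Set A was lost without the libraries low in nuclear RNA, at 0.44, whereas that in the interaction was kept at 0.92. Ccnb1, cyclin B1, was at 0.210, 0.229, 0.108 and 0.296 TPM in the running knockouts and 0.0632, 0.0706, 0.0589 and 0.0773 in the running wild types without overlap, with a log2 fold change of 0.86 (SE 0.35) in Set E and 1.26 (SE 0.55) in the interaction. Like Cdk1, Ccnb1 passed the filter only through p16 KO RUN, which favours such a separation. The interaction of Ccnb1 was not called without the libraries low in nuclear RNA, at 1.29, nor with a pseudocount of 1 TPM or quantile normalization, under which the call in Set E was lost too. Its value in Set A, 0.98 (SE 0.45), did not pass. Ccnb2, cyclin B2, ranged from 0.0929 to 1.30 TPM in the sedentary knockouts and from 0.895 to 1.82 in the running knockouts, and its log2 fold change in Set A was 1.19 (95% confidence interval -0.11 to 2.48). Cks2, the small subunit that binds CDK1, was at 2.59 ± 0.303 TPM (SD, n = 4) in the running knockouts and 2.29 ± 0.181 in the sedentary knockouts and was not called in any set. With 1 library left out, the interaction held for Ccna2 in 11 of 16 fits (from 0.91 to 1.45, lost without p16 WT CTL replicates 3 and 4, p16 KO CTL replicates 6 and 7 and p16 KO RUN replicate 16). The calls in Set E held for Ccnb1 in 3 of 8 fits (from 0.73 to 1.04, lost without p16 WT RUN replicates 9 and 11 and p16 KO RUN replicates 13, 14 and 16), and those in the interaction for Ccnb1 in 7 of 16 fits (from 1.06 to 1.53, lost without p16 WT CTL replicates 3 and 4, p16 KO CTL replicates 6 and 8, p16 WT RUN replicates 9 and 11 and p16 KO RUN replicates 13, 14 and 16). Mki67 in Set E was lost without p16 WT RUN replicate 9 and p16 KO RUN replicates 15 and 16, with values of 0.36 to 0.59.

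**Figure D4:**
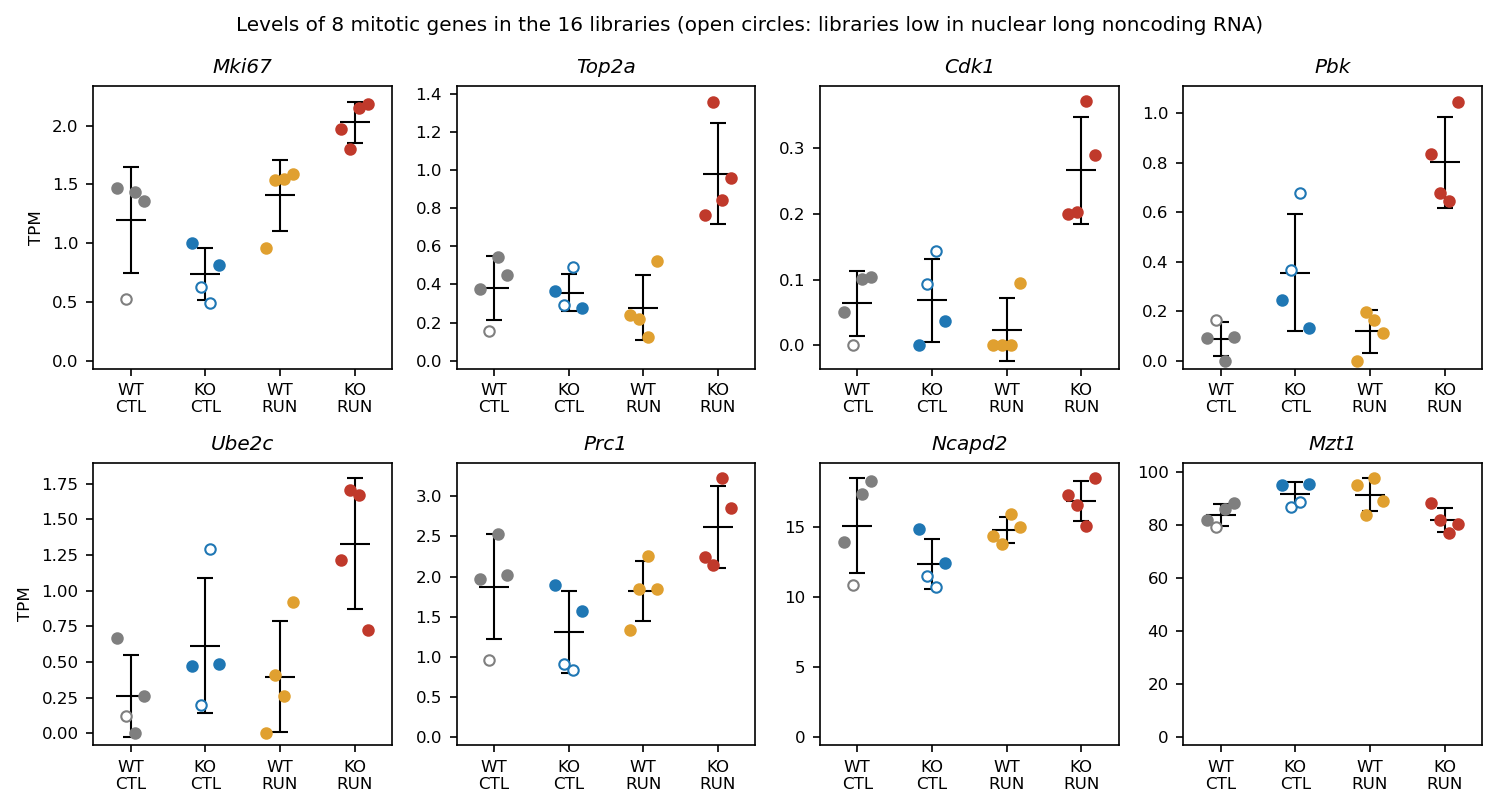
TPM of 8 mitotic genes in each library (circles, ordered by replicate number within a group) with the mean and SD of 4 libraries (bars), where open circles mark the 3 libraries low in nuclear RNA. For Mki67, Top2a and Cdk1 the 4 libraries of p16 KO RUN lie above all others (1.80 to 2.19 TPM for Mki67), and for Mzt1 they lie at 77.2 to 88.2 TPM. Cdk1 passed the filter only through p16 KO RUN.

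Among mitotic kinases and the chromosomal passenger complex, 2 of 6 tested genes rose in Set A and 2 in Set E, against 10.7% and 2.11% of all genes. Pbk (chr14:65805911-65817822), a mitotic kinase found in dividing progenitors, was higher in the running knockouts in Set E and in Set D. It was at 0.835, 0.679, 0.646 and 1.05 TPM in the running knockouts, 0, 0.199, 0.165 and 0.113 in the running wild types, 0.244, 0.368, 0.679 and 0.131 in the sedentary knockouts and 0.0929, 0.166, 0 and 0.0945 in the sedentary wild types. The groups of wild-type mice lay below 0.2 TPM throughout, and only p16 KO CTL replicate 7, low in nuclear RNA, reached the range of p16 KO RUN. Its log2 fold change was 2.13 (SE 0.39, adjusted p = 0.598) in Set E, 2.31 (SE 0.36, adjusted p = 0.118) in Set D, 1.05 (SE 0.40) in Set A and 1.25 (SE 0.48) in Set B. Pbk thus rose with running in the knockout and was also higher in sedentary knockout than in sedentary wild-type mice, and its interaction of 0.88 (SE 0.63) did not pass. Without the libraries low in nuclear RNA, Set A gave 1.64 (called), Set D 2.51 (called) and Set B 0.87 (not called).

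Plk1, the Polo kinase of mitotic entry, was at 3.30, 2.5, 3.54 and 2.75 TPM in the running knockouts and 2.92, 1.42, 0.682 and 1.85 in the sedentary knockouts, with overlap, and rose in Set A by 0.87 (SE 0.35, adjusted p = 0.250). Its lowest value, 0.682 TPM, was in p16 KO CTL replicate 7, and without the libraries low in nuclear RNA the log2 fold change was 0.33 (not called). Cdca8, the borealin subunit of the passenger complex, was at 0.443, 0.820, 1.55 and 0.889 TPM in the running wild types, 1.37, 1.07, 2.02 and 1.77 in the sedentary wild types, 1.19, 1.33, 1.07 and 1.30 in the sedentary knockouts and 1.28, 1.98, 2.19 and 1.56 in the running knockouts. The running wild types overlapped with every other group, and p16 WT RUN replicate 9 was the lowest of all. It fell in Set C by 0.78 (SE 0.34) on the log2 scale, was higher in Set E by 0.94 (SE 0.34) and had an interaction of 1.18 (SE 0.41, adjusted p = 0.797). Set C gave -0.91 (called) and the interaction 1.33 (called) for Cdca8 without the libraries low in nuclear RNA. The call in Set C was lost in 5 of 11 other ways of processing, namely a filter at a mean of 1 TPM, no filter, a pseudocount of 0.01 TPM, TPM as deposited and no variance trend. Aurka, the Aurora kinase of the centrosome, was higher in Set B, at 0.39 (SE 0.16, adjusted p = 0.625). It was at 2.56, 2.46, 2.39 and 3.00 TPM in the sedentary knockouts against 1.88, 2.06, 2.41 and 1.84 in the sedentary wild types, with a slight overlap that the scaled values did not show. Its call was lost without the libraries low in nuclear RNA, at 0.47, and with TPM as deposited. Aurkb and Birc5, the kinase and the survivin subunit of the passenger complex, were not called in any set. Aurkb was listed at 0 in 4 libraries and reached 0.485 TPM at most, and Birc5 ran from 0.264 to 2.09 TPM in the running knockouts alone. Melk, a kinase of cycling progenitors, was at 0, 0.270, 0.0791 and 0 TPM in the running knockouts and was not tested. With 1 library left out, the calls in Set A held for Plk1 in 3 of 8 fits (from 0.53 to 1.14, lost without p16 KO CTL replicates 6 and 7 and p16 KO RUN replicates 13, 15 and 16) and Pbk in 4 of 8 fits (from 0.77 to 1.38, lost without p16 KO CTL replicates 5 and 8 and p16 KO RUN replicates 13 and 16). In Set B they held for Aurka in 3 of 8 fits (from 0.33 to 0.46, lost without p16 WT CTL replicates 1 and 4 and p16 KO CTL replicates 6, 7 and 8) and Pbk in 5 of 8 fits (from 0.93 to 1.54, lost without p16 WT CTL replicate 3 and p16 KO CTL replicates 6 and 7). In Set C they held for Cdca8 in 2 of 8 fits (from -1.03 to -0.50, lost without p16 WT CTL replicates 1, 3 and 4 and p16 WT RUN replicates 9, 10 and 12), and in Set E for Cdca8 in 6 of 8 fits (from 0.67 to 1.20, lost without p16 KO RUN replicates 14 and 15).

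In the spindle checkpoint and the anaphase-promoting complex, 1 of 5 tested genes rose in Set A and in Set E, against 10.7% and 2.11% of all genes. This was Ube2c (chr2:164769929-164772902), the ubiquitin-conjugating enzyme of the anaphase-promoting complex, at 1.22, 1.71, 1.67 and 0.727 TPM in the running knockouts, 0, 0.410, 0.261 and 0.921 in the running wild types, 0.475, 0.202, 1.30 and 0.488 in the sedentary knockouts and 0.667, 0.12, 0 and 0.263 in the sedentary wild types. Only p16 KO RUN replicate 16 fell within the range of p16 WT RUN, and only p16 KO CTL replicate 7 reached the range of p16 KO RUN from the sedentary groups. The log2 fold change was 2.28 (SE 0.58, adjusted p = 0.299) in Set D, 1.88 (SE 0.64) in Set E and 1.10 (SE 0.48) in Set A, and the call in Set A held for Ube2c in 2 of 8 fits (from 0.76 to 1.52, lost without p16 KO CTL replicates 5, 6 and 8 and p16 KO RUN replicates 13, 14 and 15). Ube2c was still called without the libraries low in nuclear RNA, in Set A at 1.22 and in Set D at 2.18. In Set A the call ended without the filter, with quantile normalization, with all 16 libraries in one fit and without the variance trend. Cdc20, the activator of the complex, was at 0.959, 1.08, 0.899 and 1.20 TPM in the running knockouts and at 0.156, 0.657, 0.327 and 1.22 in the sedentary wild types, with 0.97 (SE 0.46) in Set D. The checkpoint genes did not pass in any comparison. Mad2l1, which encodes MAD2, was at 7.40 ± 1.02 TPM in the running knockouts and 7.12 ± 0.875 in the sedentary wild types (SD, n = 4), with -0.030 (95% confidence interval -0.33 to 0.27) in Set A. Bub1b, which encodes BUBR1, varied within groups, from 0.143 to 2.77 TPM in the sedentary wild types. The checkpoint kinase gene Ttk varied likewise, from 0.0611 to 0.863 TPM in the running knockouts. Bub1, below the filter, was at 0, 0.269, 0.160 and 0.113 TPM in the running knockouts and at most 0.099 in the other groups.

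At the centromere and kinetochore, 3 of 8 genes rose in Set A and 2 in Set E, against 10.7% and 2.11% of all genes. Cenpf (chr1:189640614-189688086), a large protein of the outer kinetochore that accumulates in G2, was at 0.520, 0.586, 0.648 and 0.639 TPM in the running knockouts, 0.385, 0.388, 0.285 and 0.397 in the running wild types, 0.361, 0.372, 0.384 and 0.243 in the sedentary knockouts and 0.450, 0.274, 0.491 and 0.506 in the sedentary wild types. Its p16 KO RUN libraries lay above all others, and the log2 fold change was 0.62 (SE 0.25, adjusted p = 0.247) in Set A, 0.60 (SE 0.24) in Set E and 0.81 (SE 0.33) in the interaction. Without the libraries low in nuclear RNA Set A gave 0.79 (called) and the interaction 1.12 (called). Knstrn, the small kinetochore protein kinastrin, was at 1.71, 1.0, 1.62 and 1.95 TPM in the running knockouts, 0.975, 1.20, 1.14 and 0.874 in the running wild types, 1.18, 0.898, 0.576 and 1.09 in the sedentary knockouts and 1.44, 0.746, 1.66 and 2.10 in the sedentary wild types, so that the sedentary wild-type mice reached the same range as the running knockouts. Its log2 fold change was 0.63 (SE 0.27) in Set A, 0.52 (SE 0.23) in Set E and 1.04 (SE 0.39) in the interaction. Spc24, a subunit of the NDC80 complex, was at 2.15, 3.16, 3.52 and 2.07 TPM in the running knockouts against 2.15, 1.28, 1.39 and 1.45 in the sedentary knockouts with overlap, which gave 0.69 (SE 0.24). Without the libraries low in nuclear RNA Knstrn and Spc24 lost their calls in Set A, at 0.38 and 0.54, while the interaction of Knstrn was kept at 1.04. A filter at a mean of 1 TPM or quantile normalization ended the calls of Knstrn in Sets A and E, and that in Set E was also lost with a pseudocount of 0.01 TPM, with TPM as deposited and with all 16 libraries in one fit.

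The other subunits of the NDC80 complex did not pass, since Spc25 gave 0.13 (95% confidence interval -0.99 to 1.25) in Set A, Ndc80 0.29 (95% confidence interval -0.89 to 1.46) and Nuf2 -0.26 (95% confidence interval -1.15 to 0.62). In the running knockouts they were scarce, at 0.256 to 0.999, 0 to 0.329 and 1.06 to 1.68 TPM. Cenpa, the histone variant that marks centromeres, was at 3.00 ± 0.530 TPM in the running knockouts and 2.23 ± 0.719 in the sedentary knockouts, and the motor Cenpe at 0.852 ± 0.156 and 0.899 ± 0.174 (SD, n = 4), and neither was called. With 1 library left out, calls in Set A held for Cenpf in 3 of 8 fits (from 0.50 to 0.69, lost without p16 KO CTL replicates 5 and 8 and p16 KO RUN replicates 14, 15 and 16), Knstrn in 3 of 8 fits (from 0.46 to 0.81, lost without p16 KO CTL replicates 6 and 7 and p16 KO RUN replicates 13, 15 and 16) and Spc24 in 7 of 8 fits (from 0.56 to 0.82, lost without p16 KO RUN replicate 15). In Set E they held for Cenpf in 4 of 8 fits (from 0.51 to 0.66, lost without p16 WT RUN replicate 11 and p16 KO RUN replicates 14, 15 and 16) and Knstrn in 2 of 8 fits (from 0.41 to 0.70, lost without p16 WT RUN replicates 9, 11 and 12 and p16 KO RUN replicates 13, 15 and 16). The interaction of Cenpf was lost without p16 KO CTL replicate 8 or p16 WT RUN replicate 11, with values of 0.69 to 0.95 over the 16 fits.

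Of the 7 kinesins, Kif11, Kif22 and Kif2c rose in Set A and Kif23 was higher in Set E, against 10.7% and 2.11% of all genes. Kif11, the motor that pushes spindle poles apart, was at 1.15, 1.12, 1.0 and 1.14 TPM in the running knockouts and 0.760, 0.626, 0.852 and 0.691 in the sedentary knockouts without overlap, with 0.48 (SE 0.20, adjusted p = 0.252) in Set A and 0.53 (called) without the libraries low in nuclear RNA. Kif22, the chromokinesin Kid, gave 0.63 (SE 0.26) in Set A, with 2.64, 2.83, 4.65 and 2.99 TPM in the running knockouts and 2.25, 1.61, 1.35 and 2.85 in the sedentary knockouts, and lost its call without the libraries low in nuclear RNA at 0.30. Kif2c, the microtubule depolymerase MCAK, was listed at 0.0741, 0.30, 0.141 and 0.457 TPM in the running knockouts, 0, 0, 0.0926 and 0.102 in the sedentary knockouts, 0.10, 0.196, 0 and 0.0830 in the running wild types and 0.151, 0.175, 0.201 and 0.129 in the sedentary wild types. These values overlapped between all groups except the sedentary ones. It was higher in Set A at 1.12 (SE 0.49), lower in Set B at -0.88 (SE 0.38) and had an interaction of 1.66 (SE 0.62). Without the libraries low in nuclear RNA these were 1.114, -0.84 and 1.61, none of them called.

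Kif23 (chr9:61917278-61946799), the central spindle motor of cytokinesis, was at 0, 0.0954, 0.130 and 0.209 TPM in the running wild types, 0.401, 0.138, 0.552 and 0.343 in the sedentary wild types, 0.217, 0.190, 0.134 and 0.251 in the sedentary knockouts and 0.424, 0.287, 0.478 and 0.237 in the running knockouts. It was lower in Set C at -1.16 (SE 0.46, adjusted p = 0.985), higher in Set E at 1.21 (SE 0.42, adjusted p = 1) and had an interaction of 1.71 (SE 0.54, adjusted p = 0.797). For Kif23 without the libraries low in nuclear RNA, Set C gave -1.43 (called) and the interaction 1.83 (called). The p16 WT RUN libraries lay below all p16 KO RUN libraries and, but for p16 WT CTL replicate 2, below the sedentary wild-type mice. Kif20a, Kif20b and Kif4, motors of the late spindle and of chromosome arms, were not called. In the running knockouts they were at 1.04 to 1.43, 0.286 to 0.392 and 0.175 to 0.585 TPM, and Kif4 gave -0.45 (95% confidence interval -1.22 to 0.33) in Set A. With 1 library left out, calls in Set A held for Kif11 in 2 of 8 fits (from 0.43 to 0.57, lost without p16 KO CTL replicates 5, 6 and 8 and p16 KO RUN replicates 13, 14 and 16), Kif22 in 3 of 8 fits (from 0.45 to 0.80, lost without p16 KO CTL replicates 6 and 7 and p16 KO RUN replicates 14, 15 and 16) and Kif2c in 3 of 8 fits (from 0.85 to 1.40, lost without p16 KO CTL replicates 5 and 6 and p16 KO RUN replicates 14, 15 and 16). The call of Kif23 held for Set C in 3 of 8 fits (from -1.43 to -0.84, lost without p16 WT CTL replicates 1, 3 and 4 and p16 WT RUN replicates 9 and 10) and was lost in Set E only without p16 KO RUN replicate 15, where the range was 0.89 to 1.43. In Set B the call held for Kif2c in 2 of 8 fits (from -1.06 to -0.71, lost without p16 WT CTL replicates 1, 2, 3 and 4 and p16 KO CTL replicates 5 and 6).

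Among proteins of spindle microtubules, Prc1 rose and Mzt1 fell. Prc1 (chr7:80294451-80316259), which bundles the microtubules of the central spindle, was at 2.24, 2.15, 3.23 and 2.85 TPM in the running knockouts, 1.34, 1.84, 2.26 and 1.84 in the running wild types, 1.89, 0.918, 0.838 and 1.58 in the sedentary knockouts and 1.97, 0.967, 2.54 and 2.02 in the sedentary wild types. The libraries of p16 KO RUN were above those of p16 KO CTL and overlapped with those of p16 WT RUN and p16 WT CTL. The log2 fold change was 0.94 (SE 0.27, adjusted p = 0.174) in Set A, 0.51 (SE 0.20) in Set E and 0.94 (SE 0.40) in the interaction, and without the libraries low in nuclear RNA it was 0.53 (called) in Set A and 0.78 (called) in the interaction. Tpx2, the activator of Aurora A on the spindle, was at 1.29, 1.63, 1.25 and 1.34 TPM in the running knockouts and 1.02, 0.727, 1.01 and 1.108 in the running wild types without overlap, with 0.48 (SE 0.20) in Set E.

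Mzt1 (chr14:99034544-99046136), a small protein that recruits the gamma-tubulin ring complex, was by far the most abundant of these genes and moved the other way. It was at 88.2, 82.0, 77.2 and 80.6 TPM in the running knockouts, 95.2, 86.7, 88.7 and 95.6 in the sedentary knockouts, 95, 83.8, 97.7 and 89.1 in the running wild types and 82.1, 79.2, 86.0 and 88.4 in the sedentary wild types. The sedentary knockouts and the running wild types were the highest. All groups overlapped in TPM as deposited, whereas on the scaled values, on which the fold changes rest, the sedentary knockouts lay above the running knockouts and the sedentary wild types without overlap. The changes were small beside those of the other genes, with a log2 fold change of -0.22 (SE 0.054, adjusted p = 0.157) in Set A, 0.19 (SE 0.049) in Set B, -0.15 (SE 0.055) in Set E and -0.33 (SE 0.070, adjusted p = 0.738) in the interaction. Mzt1 stayed called without the libraries low in nuclear RNA, at -0.24 in Set A, 0.20 in Set B and -0.34 in the interaction. Nusap1 and Hmmr, which bind spindle microtubules, were at 2.44 to 2.68 and 0.0606 to 0.299 TPM in the running knockouts and were not called, with 0.28 (95% confidence interval -0.15 to 0.70) and 0.97 (95% confidence interval -0.17 to 2.11) in Set A. With 1 library left out, calls in Set E held for Prc1 in 4 of 8 fits (from 0.37 to 0.61, lost without p16 WT RUN replicates 9 and 12 and p16 KO RUN replicates 15 and 16), Tpx2 in 2 of 8 fits (from 0.37 to 0.55, lost without p16 WT RUN replicates 9, 10 and 11 and p16 KO RUN replicates 13, 14 and 16) and Mzt1 in 4 of 8 fits (from -0.18 to -0.12, lost without p16 WT RUN replicates 9 and 11 and p16 KO RUN replicates 15 and 16). The interaction held for Prc1 in 8 of 16 fits (from 0.79 to 1.19, lost without p16 WT CTL replicates 1, 3 and 4, p16 KO CTL replicates 6 and 7, p16 WT RUN replicate 9 and p16 KO RUN replicates 15 and 16). With TPM as deposited the call of Mzt1 in Set B was lost.

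Of the 5 genes of condensin, the complex that compacts chromosomes, 1 was called higher in Set A and in Set E, against 10.7% and 2.11% of all genes. Ncapd2 (chr6:125168007-125191586), a regulatory subunit of condensin I, was at 17.3, 16.6, 15.0 and 18.5 TPM in the running knockouts, 14.3, 13.8, 15.9 and 15.0 in the running wild types, 14.8, 11.5, 10.7 and 12.4 in the sedentary knockouts and 13.9, 10.8, 17.4 and 18.2 in the sedentary wild types. Its p16 KO RUN libraries were above those of p16 KO CTL and within or above the range of p16 WT CTL. The log2 fold change was 0.38 (SE 0.10, adjusted p = 0.158) in Set A, 0.20 (SE 0.077) in Set E and 0.40 (SE 0.17) in the interaction, and 0.29 (called) in Set A and 0.43 (called) in the interaction without the libraries low in nuclear RNA. The core subunits Smc2 and Smc4 were at 9.76 ± 1.87 and 7.90 ± 0.480 TPM in the running knockouts and at 9.93 ± 1.87 and 7.32 ± 1.44 in the sedentary knockouts (SD, n = 4), with -0.091 (95% confidence interval -0.46 to 0.28) and 0.061 (95% confidence interval -0.25 to 0.37) in Set A. The other subunits of condensin I were scarce, Ncaph at 0.578 to 0.798 TPM and Ncapg at 0.0833 to 0.278 TPM in the running knockouts, and neither was called. For Ncapd2 the call in Set E held for 3 of 8 fits (from 0.16 to 0.25, lost without p16 WT RUN replicates 9 and 10 and p16 KO RUN replicates 13, 14 and 16), and the interaction in 8 of 16 fits, from 0.31 to 0.52, lost without p16 WT CTL replicates 3 and 4, p16 KO CTL replicates 6 and 7, p16 WT RUN replicates 9 and 10 and p16 KO RUN replicates 13 and 16.

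Among genes of cytokinesis and genes associated with the division cycle, 2 of 5 rose in Set A and none in Set E, against 10.7% and 2.11% of all genes. Racgap1 (chr15:99620496-99651656), the partner of Kif23 in the central spindle, was at 6.94, 10.1, 7.83 and 7.39 TPM in the running knockouts, 5.05, 7.26, 6.12 and 8.90 in the running wild types, 5.44, 4.60, 4.94 and 4.94 in the sedentary knockouts and 5.11, 5.45, 5.99 and 5.58 in the sedentary wild types. It lay above both sedentary groups without overlap, with 0.61 (SE 0.14, adjusted p = 0.145) in Set A and 0.52 (SE 0.14, adjusted p = 0.313) in Set D, whereas Set E gave 0.26 (95% confidence interval -0.18 to 0.70). Racgap1 stayed called without the libraries low in nuclear RNA, at 0.59 in Set A and 0.53 in Set D. Cdca3, which triggers the degradation of Wee1, was at 0.578, 1.54, 1.01 and 1.03 TPM in the running knockouts and 0.519, 0.693, 0.244 and 0.391 in the sedentary knockouts with overlap, with 0.97 (SE 0.36) in Set A and 0.96 (called) without the libraries low in nuclear RNA, a call that held for 5 of 8 fits (from 0.76 to 1.20, lost without p16 KO CTL replicates 7 and 8 and p16 KO RUN replicate 14). Anln, the actin-binding protein anillin, which oligodendrocytes also express, was at 6.44, 6.55, 8.39 and 5.25 TPM in the running knockouts and 7.72, 6.62, 7.22 and 13.6 in the sedentary knockouts, with -0.42 (95% confidence interval -0.94 to 0.10). Ect2, which activates RhoA for cytokinesis, and Cdca2, a phosphatase partner on chromatin, were below 0.5 TPM in every library and were not called.

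**Figure D5:**
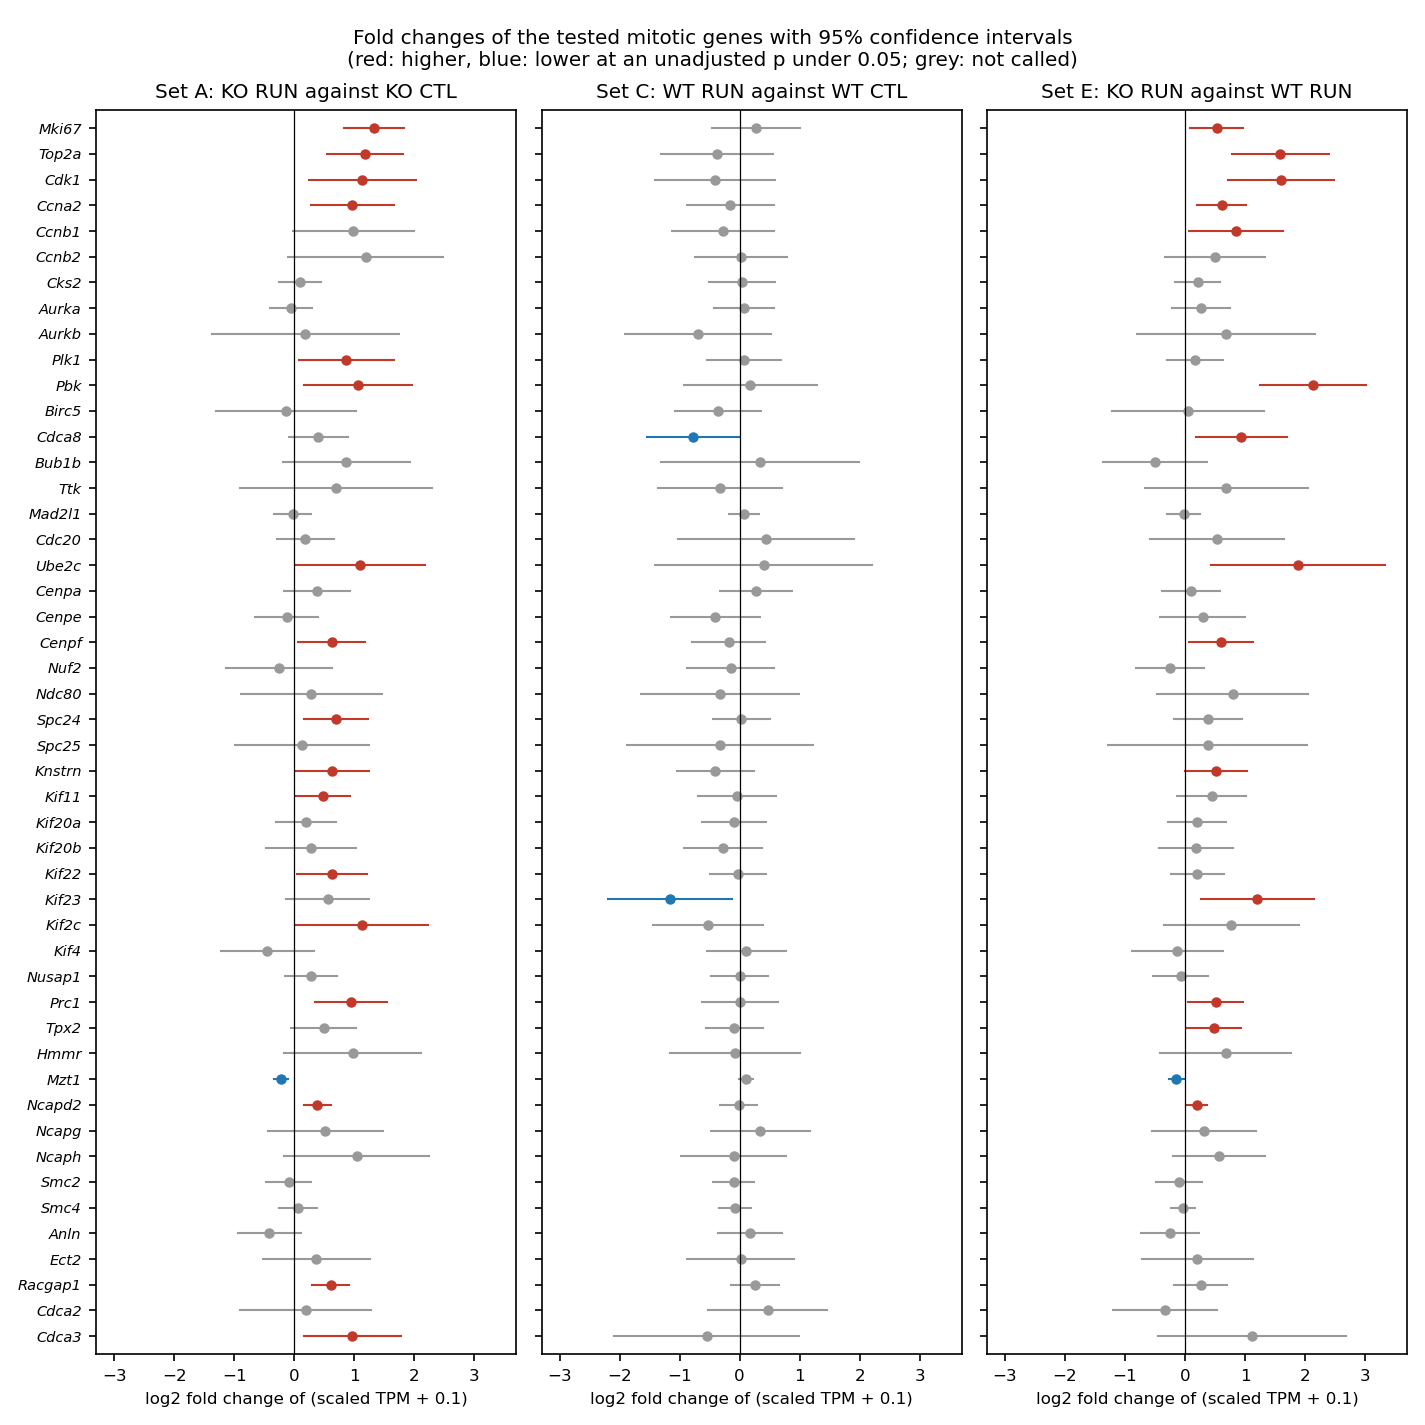
Log2 fold changes of the 48 tested mitotic genes with 95% confidence intervals in Sets A, C and E, in the order of their roles. Red marks a gene called higher and blue a gene called lower at an unadjusted p under 0.05, with 17 red in Set A, none in Set C and 14 in Set E.

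The interaction, which compares the effect of running between the genotypes, called Mki67, Top2a, Cdk1, Ccna2, Ccnb1, Cdca8, Cenpf, Knstrn, Kif23, Kif2c, Prc1 and Ncapd2 higher and Mzt1 lower. Its adjusted p-values were all at least 0.738. Kif23, Kif2c, Top2a and Cdk1, all of them low in abundance, gave 1.71, 1.66, 1.56 and 1.54, and without the libraries low in nuclear RNA 1.83, 1.61, 1.96 and 2.23, so their order depends on the libraries used. In wild-type mice no mitotic gene was called higher after running, and Mki67, Top2a and Cdk1 gave 0.27, -0.38 and -0.41 in Set C. In sedentary mice the knockout alone gave -0.53, 0.032 and 0.057 in Set B for the same genes. The p16 WT RUN group had the lowest coverage, and the part of coverage in its values at or near 0 was not tested.

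Other genes of mitosis, a list of 75 in the tables of which 65 were tested, were described for comparison. In Set A 10 were higher and 1 was lower (15.4% and 1.54%, against 10.7% and 7.74% of all genes), with a median log2 fold change of 0.11, and in Set E 4 were higher and 1 was lower (6.15% and 1.54%, against 2.11% and 1.76%). When the libraries low in nuclear RNA were left out, 4 of the 65 were higher in Set A (6.15%) and none lower, against 4.9% and 3.59% of all genes. Mybl2, which encodes the B-Myb factor that works with the MuvB complex at mitotic promoters, was higher in Set A at 1.47 (SE 0.35, adjusted p = 0.153), lower in Set B at -1.14 (SE 0.40) and had an interaction of 1.43 (SE 0.47). Without those libraries Mybl2 stayed called in Set A at 1.06 and in the interaction at 1.16, and in Set B gave -0.87 (not called). Kifc1, a minus-end kinesin, gave 0.59 (SE 0.18), Kif18a, a motor that damps chromosome movement, 0.61 (SE 0.22) and Incenp, the scaffold of the passenger complex, 0.25 (SE 0.086) in Set A, and without those libraries 0.51 (called), 0.63 (not called) and 0.17 (not called), so that the value of Kif18a stayed as large while its call was lost. In Set E, Ckap2 and Spdl1, of the spindle and the kinetochore, were higher at 0.89 (SE 0.24) and 1.07 (SE 0.37), and Bora, a cofactor of Aurora A, was lower at -0.42 (SE 0.15).

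Replication genes, which act in S phase before mitosis, were raised in Set A in 8 of 47 cases (17.0%, against 10.7% of all genes) and lowered in none (against 7.74%), with a median of 0.16. With the libraries low in nuclear RNA left out, 4 of 47 were called higher (8.51%, against 4.9% of all genes). Pole, the catalytic subunit of polymerase epsilon, gave 0.98 (SE 0.24, adjusted p = 0.157), the licensing factor Cdt1 0.70 (SE 0.22), the chromatin assembly subunit Chaf1b 1.03 (SE 0.39) and the thymidine kinase Tk1 1.17 (SE 0.44). Pole, Cdt1 and Chaf1b stayed called without those libraries, at 0.68, 0.76 and 1.04, and Tk1 was not, at 0.62. In Set E 2 were higher, Chaf1b at 1.49 (SE 0.47) and Gins1 at 0.89 (SE 0.31), and 1 was lower, and the interaction called Pole alone at 0.78 (SE 0.31), a call lost without those libraries at 0.56. The share of replication genes called higher in Set E, 4.26%, was closer to that of all genes than the 29.2% of the mitotic genes, and the difference of these shares was not tested.

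Markers of the cell types of this tissue moved in different directions in Set A. For reference, the shares of all tested genes called are 10.7% higher and 7.74% lower in Set A, then 3.15% and 3.54% for Set B, 4.97% against 3.66% for Set D, 2.11% against 1.76% for Set E, and for the interaction 2.95% against 2.54%. Of 12 genes of dentate granule neurons, 10 were positive in Set A with a median of 0.28 and 2 called higher, none was positive in Set B with a median of -0.21, and 11 were positive in the interaction with a median of 0.26, so that this list moved with the mitotic genes in Set A and the interaction. When the libraries low in nuclear RNA were left out, its medians were 0.50 in Set A with 1 called higher, -0.60 in Set B with 2 called lower (against 3.48% of all genes in that fit) and 0.66 in the interaction with 3 called higher (against 3.75%). The summed level of these genes was 1110 to 1643 TPM in the running knockouts, 1030 to 1492 in the running wild types, 662 to 1289 in the sedentary knockouts and 823 to 1723 in the sedentary wild types. Of 8 genes of CA1 and CA3 pyramidal neurons, 1 was positive in Set A with a median of -0.32 and 2 called lower, and 7 were positive in Set B with a median of 0.34 and 1 called higher. When the same libraries were left out the medians were -0.39 and 0.67. Eomes, the factor of intermediate neuronal progenitors, was at 0.389, 0.770, 0.762 and 0.639 TPM in the running knockouts and at 0, 0.0880, 0.109 and 0.237 in the running wild types, with 1.92 (SE 0.42) in Set E, 0.98 (SE 0.33) in Set A and 2.07 (SE 0.59) in the interaction, all called. Eomes stayed called in Set A and the interaction without the libraries low in nuclear RNA, at 1.108 and 2.07. Of the 11 genes of newborn neurons, 3 were called higher in Set A, 4 in Set E, 2 in Set D and 2 in the interaction, and none lower, and 1 was called higher in Set B. The list had medians of 0.27 in Set A, with all 11 positive, and 0.28 in Set E, with 9 positive. Its member Dcx was not called, at 0.020 in Set A, -0.23 in Set D and -0.11 in Set E. The summed level of the list was 265 to 389 TPM in the running knockouts, 196 to 269 in the running wild types, 227 to 311 in the sedentary knockouts and 241 to 316 in the sedentary wild types, and no gene of the list was at 0 in a whole group. Of the 12 genes of neural stem cells and astrocytes, 1 was called higher and 5 lower in Set A, with a median of -0.31, and none higher and 1 lower in Set E. In Set B the same list had 4 called higher, 10 positive and a median of 0.27, and in Set D 3 called higher. With the libraries low in nuclear RNA left out, 6 were called higher in Set B, where 3.19% of all genes were, with a median of 0.26. The list had sums of 2381 to 2796 TPM in the running knockouts, 2439 to 3535 in the sedentary knockouts and 2358 to 3037 in the running wild types. Of the 10 genes of oligodendrocyte precursors, none was called higher and 1 lower in Set A, with a median of -0.035, and 1 was called higher in Set E. In Set B 5 of them were called higher, namely Gpr17, Olig1, Olig2, Sox10 and Neu4, with 9 positive and a median of 0.32, and in Set D 3 were, with all 10 positive. With the libraries low in nuclear RNA left out, 1 was called higher in Set B and 4 in Set D, where 3.19% and 5.92% of all genes were. Pdgfra, which defines these cells, was between 17.9 and 26.6 TPM in all libraries. Their sums were 219 to 279 TPM in the running knockouts, 227 to 265 in the sedentary knockouts and 190 to 268 in the running wild types. Of the 8 endothelial genes, 1 was called higher in Set A, where all 8 were positive with a median of 0.49, and 1 in Set E. All 8 were also positive in the interaction and in Set D, with medians of 0.37 and 0.21, and none was in Set B, with a median of -0.22, although none was called in these. These medians were -0.011, 0.14 and 0.078 without the libraries low in nuclear RNA. The endothelial genes had sums of 121 to 177 TPM in the running knockouts and 70.9 to 140 in the sedentary knockouts. Of the 10 microglial genes, 2 were called lower in Set A, where none was positive and the median was -0.29, 2 were called higher in Set B, where all 10 were positive with a median of 0.20, and 1 was called higher in Set E. Of the 8 genes of mature oligodendrocytes, 5 were called lower in Set A, where none was positive and the median was -0.40, 1 was called higher in Set B, where all 8 were positive with a median of 0.38, and none was called in Set E. In the interaction 1 was called lower with a median of -0.54, or 7 with a median of -0.79 without the libraries low in nuclear RNA. Without the libraries low in nuclear RNA, 4.9% of all genes were called higher in Set A and 3.59% lower. In this fit 2 genes were called higher for newborn neurons, 3 lower for stem cells and astrocytes and 3 lower for oligodendrocytes. None was called for precursors, endothelium or microglia. The medians were 0.41 for the mitotic genes, 0.50 for granule neurons, 0.32 for newborn neurons, 0.044 for the endothelium and -0.46 for oligodendrocytes. They were -0.030 for stem cells and astrocytes with 6 positive, -0.021 for microglia with 5 positive and 0.052 for precursors with 7 positive. In Set B the microglial genes then had a median of 0.0036, with 5 positive and none called. Among 7 genes of the ependyma, 3 were called higher in Set D, with 6 positive and a median of 0.63. All 7 were positive in Set B, with a median of 0.65 and 1 called higher. In the interaction none of them was positive and the median was -0.58. Without the libraries low in nuclear RNA, 4 ependymal genes were called higher in Set B and 4 in Set D, against 3.19% and 5.92% of all genes. Their medians were then 1.20 in Set B, 0.71 in Set D and -1.74 in the interaction. Among 7 tested genes of the choroid plexus, 1 was called higher in Set E, with 4 positive and a median of 0.94. The part of these cell types in the changes of the mitotic genes was not tested.

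Some of the values share sequence with other genes. In the GENCODE vM21 annotation, exons of 12 mitotic genes overlap exons on the opposite strand, among them Ube2c (with Tnnc2), Prc1 (with Rccd1), Ccna2 (with Exosc9) and Cdca8, Cdc20, Knstrn, Plk1, Kif22, Kif20a, Kif4, Nusap1 and Ncapg. Exons of Top2a and Ncapd2 overlap small RNAs or a predicted gene on the same strand. A pseudogene is named after Ccnb1, Ccnb2, Kif22 and Kif4. Whether the abundances were computed with strand is not given in the sources used here, so reads shared with these genes could not be told apart.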

How the data were processed

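RNA of 16 dentate gyrus libraries was prepared with the Universal Plus mRNA-Seq kit, which selects polyadenylated RNA. According to the labels and the methods of the study, base calling used bcl2fastq 2.20, trimming ERNE and cutadapt 1.11, alignment to mm10 STAR, and abundances StringTie. The deposited TPM values were made by the authors with StringTie per gene, corrected for length and scaled to a fixed total per library. The deposited FPKM values come from the same StringTie run, per the file headers, and served as an alternative. The deposited Coverage column is the mean read coverage per base, per the file headers, and was used to describe depth. Read counts were not used here, so no count model was fitted, and counting error is unknown. Whether StringTie used strand is not given in the sources used here.

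Values of repeated gene names were summed, TPM was scaled by median ratios over 13226 genes that reached 1 TPM in every library, and log2(scaled TPM + 0.1) of the 17317 genes whose mean reached 0.1 TPM was tested with limma 3.58.1 (R 4.3.3) with a variance trend. Each set was fitted on its 8 libraries and the interaction on all 16. A call is a two-sided unadjusted p under 0.05, and adjusted p-values are Benjamini-Hochberg values over all tested genes. A fold change on this scale understates the change of genes near 0.1 TPM. Exact permutation tests ran over the 70 splits of 4 against 4 libraries, with 0.0286 as their smallest p. The script was tested on simulated data. The labels do not say how mice were paired into pools, and p-values measure the spread between pools.

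Members and lists were chosen with earlier results of these data known. Every one of the 50 members is named, fuller values go to members called in any comparison or named in the results text of the study, other genes of mitosis and replication are named from the up to 4 smallest p among those called per list and comparison, and Cdkn2a is given as the knocked-out gene. Alternatives were other filters and pseudocounts (1 and 0.01), unscaled TPM, quantile scaling, FPKM, a joint fit of all groups, a fit without the trend, the largest value of a repeated name, leaving out each library and, added after seeing the data, the libraries under 0.5 of the median nuclear RNA level left out, and counts without the members that the filter or the study's own choice favoured. Exons that overlap were read from GENCODE vM21, and promoter windows from RefSeq GRCm38.p6, by Python 3.11.15 with pandas 2.3.3.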

Additional observations from a re-analysis of the deposited data

Results flagged for a closer look

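Of 92 groups of 4 libraries checked, 6 held a library that stood apart by Dixon's criterion, and chance alone marks about 1 in 20 groups. For Mki67 these were p16 WT CTL replicate 2, at 0.527 TPM, which is low in nuclear RNA, and p16 WT RUN replicate 9, at 0.957 TPM, each below its group. For Cdk1 it was p16 WT RUN replicate 12, at 0.0955 TPM, where the other libraries of the group were listed at 0. Ccna2 stood high in p16 KO RUN replicate 16, at 3.05 TPM. Cenpf stood low in p16 KO CTL replicate 8, at 0.243 TPM, and in p16 WT RUN replicate 11, at 0.285 TPM, and leaving out either of these libraries ended the interaction of Cenpf.

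The effect of running differed between the genotypes for 13 mitotic genes by the interaction in limma at an unadjusted p under 0.05, with no adjusted p under 0.738. These were 27.1% of the 48 tested, against 5.48% of all tested genes. Cdk1 and Ccnb1 among them passed the filter only through p16 KO RUN. Without the 5 genes that passed in this way, 10 of 43 were called higher and 1 lower. Without the genes named by the study as well, 4 of 36 were called higher and none lower. Over all tested genes 2.95% were called higher and 2.54% lower. In units of log2(scaled TPM + 0.1) the interaction was 1.05 for Mki67, 1.56 for Top2a, 1.54 for Cdk1, 1.13 for Ccna2 and 1.26 for Ccnb1. It was 1.18 for Cdca8, 0.81 for Cenpf, 1.04 for Knstrn, 1.71 for Kif23, 1.66 for Kif2c, 0.94 for Prc1 and 0.40 for Ncapd2. It was -0.33 for Mzt1. The calls of Mki67, Top2a, Cdk1, Cdca8, Knstrn, Kif23, Kif2c and Mzt1 held in each of the 16 fits with 1 library left out.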

How the results depend on the processing

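With a filter at a mean of 1 TPM, 24 mitotic genes were tested and fewer were called, namely 9 in Set A (18 as reported), for Set B 2 (4), for Set C 0 (2), for Set D 2 (6), for Set E 7 (15) and for the interaction 7 (13). In those fits 20%, 6.44%, 4.9%, 8.91%, 3.55% and 5.22% of all tested genes were called, in this order. The shares of mitotic genes called were 37.5%, 8.33%, 0%, 8.33%, 29.2% and 29.2%. As reported, with 48 genes tested, they were 37.5%, 8.33%, 4.17%, 12.5%, 31.2% and 27.1%. Quantile normalization called 9 in Set A (18.8%, against 17.8% of all genes). TPM as deposited called 2 in Set B (4.17%, against 6.43%) and 1 in Set C (2.08%, against 4.7%). A pseudocount of 0.01 called 0 in Set C (4.78% of all genes), no variance trend called 1 in Set C (2.08%, against 4.68%) and 11 in Set D (22.9%, against 8.24%), and no filter called 11 in Set D (22%, against 8.76%). Leaving out the libraries low in nuclear RNA called 2 in Set B (4.17%, against 6.68%) and 4 in Set C (8.33%, against 5.88%). The cause of these changes was not tested, except that a filter at 1 TPM leaves fewer genes. With 1 library left out, Set A called 12 to 16, Set B 1 to 9, Set C 0 to 4, Set D 6 to 9, Set E 8 to 15 and the interaction 9 to 17, where the share of all genes called ran from 11.7% to 27.4%, 3.22% to 17.5%, 3.07% to 5.88%, 6.53% to 11.2%, 2.81% to 6.05% and 3.57% to 13.7%. Set B gave 9 when p16 WT CTL replicate 2 was left out and 1 when p16 KO CTL replicate 6 was, with 2 for p16 WT CTL replicate 3 or p16 KO CTL replicate 7. Set C called 0 without p16 WT CTL replicates 1, 3 or 4 in turn, 4 without p16 WT CTL replicate 2, and 1 without p16 WT RUN replicates 9, 10 or 12 in turn. Over single called genes, the call was kept in 949 gene and setting pairs and lost in 201, with the direction kept in each of the pairs run. No paired analysis was possible because the replicate numbers run from 1 to 16 and no number is shared between groups. Cdk1, Ube2c, Kif2c and Kif23, all with a mean under 1 TPM, had a mean coverage per base of 0.303, 1.93, 0.368 and 0.734. The part of coverage in their values was not tested.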
